A study of Mus musculus with 16 samples.

Results

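The promoters described here carried a peak of monomethylated histone H3 lysine 4 (H3K4me1) in CD8+ T cells treated with the LSD1 inhibitor GSK2879552 (GSK) and none in cells given vehicle (Veh). A promoter was taken as the 2001 bp window reaching 1 kb to either side of a transcription start site (TSS) of a curated RefSeq transcript, and each distinct TSS gave its own window. Members were selected on H3K4me1 peaks alone: at least 1 bp of a GSK H3K4me1 peak had to fall in the window and no base of a Veh H3K4me1 peak. This rule gave 3090 of 31603 promoters (9.78%), at 2755 genes. A further 8193 promoters had H3K4me1 in both treatments, 1107 in Veh only and 19213 in neither.

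The cells were CD8+ T cells from the spleens of OT1 mice, which express a transgenic T cell receptor. In both treatment groups they were activated for 48 h with 2 μg/ml anti-CD3, 2 μg/ml anti-CD28 and 20 ng/ml IL-2 and then expanded for 3 days. GSK was given at 0.5 μM, and the other group received vehicle. Chromatin immunoprecipitation with sequencing (ChIP-seq) was done for RNA polymerase II (Pol II), for LSD1 and for 4 histone marks (H3K27ac and the mono-, di- and trimethylated forms of lysine 4), with 1 library per antibody and treatment and so 12 peak lists in all. No replicate check or test was therefore possible between treatments, and each share below carries a Wilson 95% interval, which covers counting error only. Neighbouring TSSs share peaks, so these intervals are narrower than the error between cultures.

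LSD1 (Kdm1a) is a flavin-dependent demethylase that takes methyl groups from mono- and dimethylated lysine 4 of histone H3 and cannot act on the trimethylated form. H3K4me1 is best known from enhancers, whereas H3K4me3 marks the nucleosomes around active and CpG-rich start sites. At such promoters H3K4me1 usually lies on the shoulders, outside the H3K4me3 core. H3K27ac and Pol II accompany activity, and GSK2879552 is an irreversible inhibitor of the catalytic activity of LSD1.

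The nature of the cells was checked first. An H3K4me3 peak lay on a promoter of all 8 T cell genes examined (Cd3e, Cd3d, Cd3g, Cd8a, Cd8b1, Cd2, Lck and Zap70) in both treatments. It lay on 2 of 10 B cell genes (Cd79b and Ebf1) in each treatment, on 4 of 14 myeloid genes in Veh and 3 of 14 in GSK, and on 0 of 2 natural killer genes. Of the CD4 lineage genes, Cd4 had no H3K4me3 peak, while Zbtb7b had one in both treatments. Neuronal genes had it at 6 of 15 in each treatment. The GSK H3K4me1 list was longer than the Veh list, with 40272 against 34387 peaks. For H3K4me2 it was the reverse, 9437 in GSK against 15219 in Veh, and for H3K27ac 2751 against 7410. The LSD1 lists (19919 in GSK, 21252 in Veh), H3K4me3 lists (16887 and 15779) and Pol II lists (15401 and 15638) differed less. By the study's own listing, the GSK library had more unique read pairs for H3K4me1, H3K4me3 and Pol II. It had fewer for H3K4me2, LSD1 and, by a wide margin, H3K27ac. The part that sequencing depth had in these lengths and in the differences below was not tested. When both lists of each antibody were shortened to the same number of peaks by −log10 p, 2248 promoters had H3K4me1 in GSK only and 1694 in Veh only, a smaller excess than with the lists as deposited. All 2248 were among the 3090.

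Most members fell into 2 sets, with and without H3K4me3, that differed in median CpG content. The sequences of 8 start sites are shown as examples. Each sequence runs from 250 bases upstream of the TSS through the first 30 transcribed bases of the coding strand in the RefSeq reference (build GRCm38.p6, equal to mm10), in lower case with every CG dinucleotide in capitals. The first 3 had H3K4me3 in both treatments and a GSK H3K4me1 peak beside the TSS. They belong to Lats2, a kinase of the Hippo pathway (chr14:57746094-57746373, minus strand), to Psmd14, the deubiquitinase of the proteasome lid (chr2:61711444-61711723, plus strand), and to Nr4a2, an orphan nuclear receptor induced by T cell receptor signalling (chr2:57123974-57124253, minus strand). They hold 33, 19 and 50 CG dinucleotides in 280 bases.
Lats2: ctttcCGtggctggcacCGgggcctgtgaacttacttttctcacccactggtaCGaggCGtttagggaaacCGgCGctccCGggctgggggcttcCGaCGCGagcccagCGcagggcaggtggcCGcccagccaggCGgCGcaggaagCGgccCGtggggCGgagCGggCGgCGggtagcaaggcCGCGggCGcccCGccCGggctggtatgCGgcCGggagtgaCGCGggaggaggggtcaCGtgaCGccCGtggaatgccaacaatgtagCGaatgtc
Psmd14: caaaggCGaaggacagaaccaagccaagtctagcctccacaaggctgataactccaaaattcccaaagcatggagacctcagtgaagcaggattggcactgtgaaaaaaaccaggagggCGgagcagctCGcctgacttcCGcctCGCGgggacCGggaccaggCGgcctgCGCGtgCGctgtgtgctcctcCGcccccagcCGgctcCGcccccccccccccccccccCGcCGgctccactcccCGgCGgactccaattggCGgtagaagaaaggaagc
Nr4a2: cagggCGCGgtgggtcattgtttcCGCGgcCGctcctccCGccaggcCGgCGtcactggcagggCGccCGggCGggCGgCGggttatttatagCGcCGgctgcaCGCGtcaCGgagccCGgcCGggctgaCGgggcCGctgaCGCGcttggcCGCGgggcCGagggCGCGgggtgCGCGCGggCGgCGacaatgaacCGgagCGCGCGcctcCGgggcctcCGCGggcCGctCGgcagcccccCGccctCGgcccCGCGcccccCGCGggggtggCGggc

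The next 2 also had H3K4me3 in both treatments, but here the GSK H3K4me1 peak ran over the whole stretch shown. Tcf7 encodes TCF-1, the factor that maintains stem-like and memory T cells (chr11:52282566-52282845, minus strand), and Tgif2 a homeobox corepressor of TGFβ signalling (chr2:156839757-156840036, plus strand). They hold 17 and 23 CG dinucleotides.
Tcf7: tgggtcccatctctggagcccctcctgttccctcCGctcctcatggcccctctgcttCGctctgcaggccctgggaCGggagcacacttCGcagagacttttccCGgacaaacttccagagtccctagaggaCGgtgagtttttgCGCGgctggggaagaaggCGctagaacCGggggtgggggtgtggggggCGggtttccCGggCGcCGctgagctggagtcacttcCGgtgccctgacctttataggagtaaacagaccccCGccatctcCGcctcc
Tgif2: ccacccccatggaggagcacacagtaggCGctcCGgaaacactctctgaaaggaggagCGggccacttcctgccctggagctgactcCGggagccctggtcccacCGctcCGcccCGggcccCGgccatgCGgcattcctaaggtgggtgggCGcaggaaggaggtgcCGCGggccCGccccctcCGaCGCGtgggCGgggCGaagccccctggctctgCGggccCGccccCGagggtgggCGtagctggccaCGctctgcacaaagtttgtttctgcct

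The last 3 had no H3K4me3 peak in either treatment. They belong to Bhmg1, a protein with helix-loop-helix and HMG-box domains (chr7:19118315-19118594, minus strand), to Gp5, a platelet membrane glycoprotein (chr16:30310752-30311031, minus strand), and to a start site of Ets1, a transcription factor of lymphocytes (chr9:32635991-32636270, plus strand). Gp5 has 0 CG dinucleotides in this stretch, Ets1 has 5, and Bhmg1 with 33 is as rich as Lats2.
Bhmg1: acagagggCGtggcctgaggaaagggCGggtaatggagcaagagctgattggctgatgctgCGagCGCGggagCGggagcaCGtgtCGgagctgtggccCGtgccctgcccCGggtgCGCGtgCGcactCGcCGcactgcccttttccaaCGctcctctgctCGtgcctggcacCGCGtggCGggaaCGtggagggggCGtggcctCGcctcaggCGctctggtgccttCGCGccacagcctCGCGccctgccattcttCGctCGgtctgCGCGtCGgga
Gp5: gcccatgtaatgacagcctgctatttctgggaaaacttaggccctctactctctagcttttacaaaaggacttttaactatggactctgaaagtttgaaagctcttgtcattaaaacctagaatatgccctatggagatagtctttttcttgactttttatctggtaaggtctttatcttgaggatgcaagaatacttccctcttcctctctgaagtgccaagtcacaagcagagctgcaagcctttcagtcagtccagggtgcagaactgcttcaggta
Ets1: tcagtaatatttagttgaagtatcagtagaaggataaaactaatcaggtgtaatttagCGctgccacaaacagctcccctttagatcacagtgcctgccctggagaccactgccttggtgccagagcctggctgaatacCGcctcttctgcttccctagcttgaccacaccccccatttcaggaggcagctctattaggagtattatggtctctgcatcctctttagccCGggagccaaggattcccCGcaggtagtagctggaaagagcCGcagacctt

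The gained H3K4me1 itself is described here without a test, since it chose the promoters. The 3090 windows, which merge into 2498 separate regions, were reached by 2607 distinct GSK peaks. Their fold enrichment over background ranged from 1.86 to 7.20 with a median of 3.86, and their median width was 482 bp. GSK peaks on promoters with H3K4me1 in both treatments were larger, with a median fold of 4.09 and a width of 861 bp. Within the member windows the mark occupied a median of 339 bp (quartiles 205 and 507). The midpoint of 46.1% of the peaks lay in an intron of a curated transcript, 18.1% in an exon and 35.7% outside transcripts.

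At the threshold the selection was fine-grained. The members just inside it were Lin9 (a subunit of the DREAM complex), Ints9 (Integrator) and Plec (plectin), each with 1 bp of a GSK peak at the window edge. The promoters just outside were Zfp866, Slc31a2 and Drg2, where GSK peaks covered 1597, 1199 and 1436 bp and a Veh peak reached in by 6, 13 and 15 bp. With an overlap of at least 200 bp required of every peak, 2346 of the 3090 promoters (75.9%) were still GSK only. With only peaks of −log10 q at or above 5, 1353 (43.8%) were, and the other 1737 then had no H3K4me1 peak in either treatment, so the GSK peaks of most members lay below that q.

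A Veh H3K4me1 peak lay within 1 kb of the window at 725 of the 3090 members (23.5%, interval 22.0 to 25%) and within 10 kb at 1605 (51.9%). In 382 members (12.4%, interval 11.2 to 13.6) the GSK peak also met a Veh peak beyond the window edge and was thus an extension of a Veh peak. This share was 24.7% with windows of 500 bp either side and 6.90% at the stricter q. Of the members named by rule, Tcf7, Bcl2, Cd27, Cxcr3, Tyk2, Ash2l, Bbc3, Morrbid, Gp5 and Lin9 were such extensions. For members outside the 382 no Veh peak touched the GSK peak. The median distance from a member window to the closest Veh H3K4me1 peak was 9046 bp. In the opposite class, promoters with H3K4me1 in Veh only, the closest GSK peak was nearer, at a median of 3292 bp, and 23.0% were extensions. The GSK list is the longer of the pair, so these distances are not on an equal footing.

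**Figure D1:**
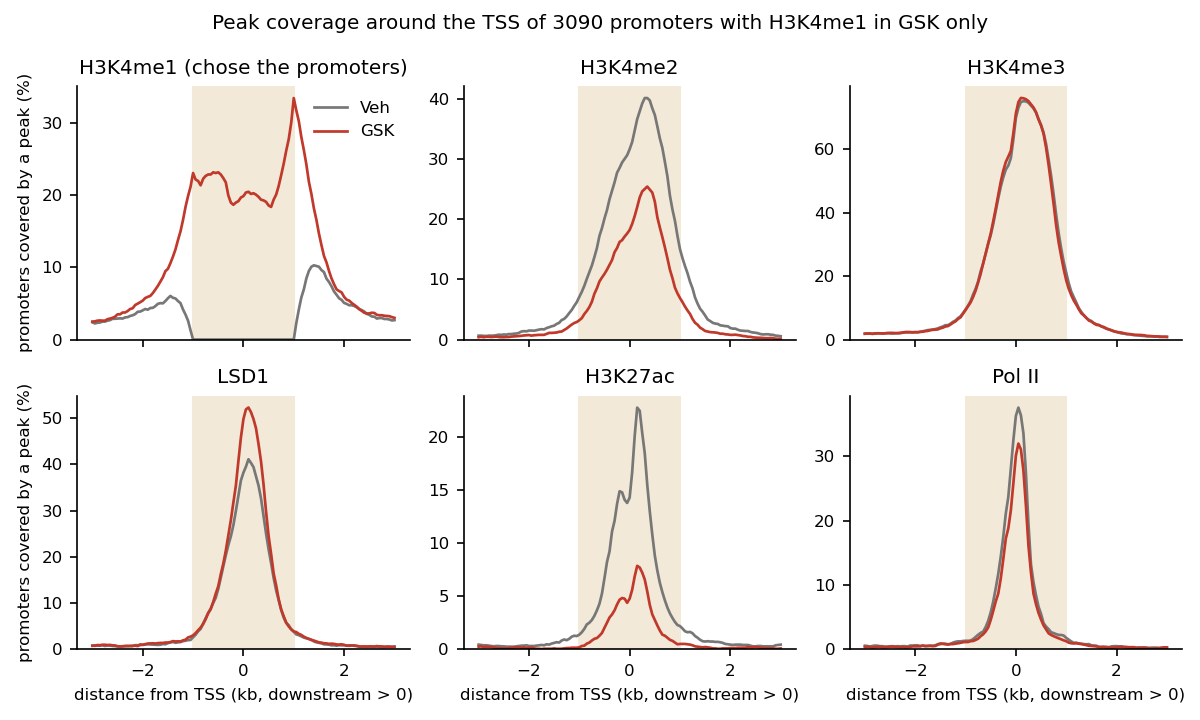
Share of the 3090 member promoters covered by a peak (y axis, percent) at each 50 bp step from 3 kb upstream to 3 kb downstream of the TSS (x axis), for Veh (grey) and GSK (red) and each antibody; the shaded band is the window of 1 kb either side that defined the members. H3K4me1 in GSK covers 33.5% at 1 kb downstream and 19.9% at the TSS, while H3K4me3 and LSD1 are centred just downstream of the TSS in both treatments.

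The mark was found at the shoulders more often than over the start site. At 1208 members (39.1%, interval 37.4 to 40.8) the GSK peak lay upstream of the TSS only, at 1151 (37.2%, interval 35.6 to 39.0) downstream only, at 116 (3.75%) on both sides with the TSS free, and at 615 (19.9%) over the TSS. Among the one-sided members 48.8% were downstream (interval 46.8 to 50.8), close to an even split, but with windows of 500 bp either side only 37.3% were (34.6 to 40). Coverage by GSK H3K4me1 peaks was 23.1% of members at 1 kb upstream, 19.9% at the TSS, 18.6% at 500 bp downstream and 33.5% at 1 kb downstream. The highest values lie at the window edges, where the rule admits a peak by its first base. In promoters with H3K4me1 in both treatments, the GSK peak covered the TSS at 44.5%.

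Neighbouring genes bear on the side. An opposite-strand TSS lay within 1 kb upstream at 571 members (18.5%, interval 17.1 to 19.9), against 11.0% of all promoters and 20.0% of the promoters with H3K4me1 in Veh only. At these head-to-head members 61.1% of one-sided peaks were downstream (interval 56.7 to 65.3), compared with 45.6% (43.4 to 47.9) at the remaining members. A peak upstream of such a promoter lies downstream of its neighbour, as at Exd1 and Chp1, where a single GSK peak at chr2:119546632-119547237 is downstream of Exd1 and upstream of Chp1.

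H3K4me3, which the rule did not use, was the mark most often shared. It had a peak in both treatments at 2485 of 3090 members (80.4%, interval 79.0 to 81.8), compared with 49.1% of all promoters. The same held for 85.1% (82.9 to 87.1) of promoters with H3K4me1 in Veh only and 77.5% (76.6 to 78.4) of those with H3K4me1 in both. It differed between treatments at few members: 41 (1.33%) had an H3K4me3 peak in GSK only and 16 (0.518%) in Veh only, where 1.52% and 0.351% of all promoters did. The net difference of 0.809 points toward GSK (0.338 to 1.18) was −0.178 (−0.716 to 0.389) with lists of equal length, 1.41 with windows of 500 bp and 2.28 at the stricter q. In bulk cells, a peak present in fewer cells and a peak that is weaker in every cell cannot be told apart.

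At the 2485 members with H3K4me3 in both treatments, the H3K4me3 peak nearest the TSS had a median width of 1265 bp in Veh and 1259 bp in GSK. Within promoters the GSK peak was narrower by a median of 22 bp. Its downstream edge was nearer to the TSS in GSK at 68.8% of them, and this share was similar at promoters with H3K4me1 in Veh only (69.3%) and in neither treatment (68.6%), and lower at those with it in both (59.1%). The inward step of that edge was thus found in promoters that did and did not gain H3K4me1. Of the H3K4me1-covered bases in these member windows, 34.6% lay inside the Veh H3K4me3 peak, and 44.7% of the windows had any such base.

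Peaks of H3K4me1 around H3K4me3 promoters were generally wider in GSK. Where a Veh peak flanking the TSS within 5 kb matched exactly 1 GSK peak, the median width over all H3K4me3 promoters was 651 bp in Veh and 739 bp in GSK for 3103 downstream pairs, and 638 and 711 bp for 2900 upstream pairs. The edge facing the TSS was nearer to it in GSK in 56.0% of the downstream and 52.4% of the upstream pairs. The outer edge was farther out in 59.5% and 63%. At members, the inner edge was nearer in 240 of 348 downstream pairs (69.0%) and 154 of 204 upstream pairs (75.5%), a direction that the selection itself favours.

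The 548 members without H3K4me3 in either treatment (17.7%) formed a separate set. Among these, 540 had no Pol II peak and 543 no H3K27ac peak in either treatment, and 463 (84.5%) had no LSD1 peak. Lacking such peaks was general without H3K4me3. Of all 15502 promoters without it, 15242 had neither Pol II nor H3K27ac, as had 538 of the 548 members. LSD1 was more frequent at these members than at the 15502. It was in GSK only at 39 and in Veh only at 24 of the 548, against 345 and 219 of the 15502. The H3K4me1 peak covered the TSS at 40.5% of them (interval 36.5 to 44.7), against 14.4% (13.0 to 15.8) of the members with H3K4me3. Their peaks had a higher median fold, 4.12 against 3.81, and a larger width, 535 against 470 bp. Protein-coding genes made up 79.4% of this set and 92.2% of the H3K4me3 set, and long noncoding RNA (lncRNA) genes 14.8% and 5.92%. Over all members, 2771 windows belonged to protein-coding genes, 238 to lncRNA genes, 50 to microRNA genes and 12 to snoRNA genes. The GSK-only class held 10.6% of all protein-coding promoters, 6.75% of lncRNA promoters and 4.07% of microRNA promoters.

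**Figure D2:**
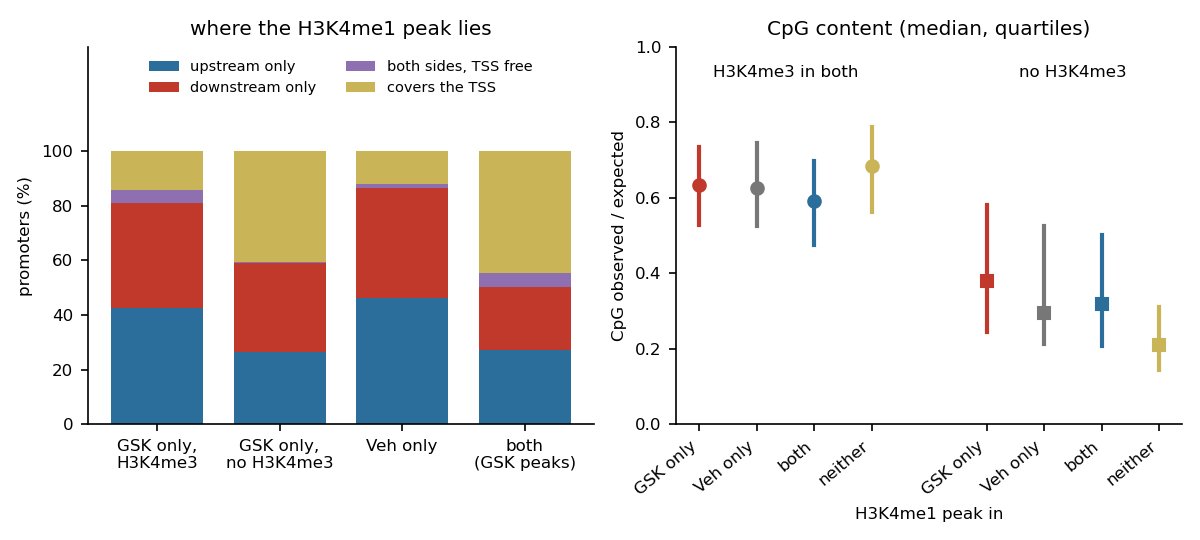
Left, share of promoters (y axis, percent) whose H3K4me1 peak lies upstream only, downstream only, on both sides or over the TSS, for GSK-only promoters with and without H3K4me3, Veh-only promoters and promoters with H3K4me1 in both (GSK peaks). Right, median (symbol) and quartiles (line) of the observed over expected CpG content of the window by H3K4me1 class; members without H3K4me3 sit at 0.381 and members with it at 0.635.

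CpG content, read from the reference sequence and independent of the peaks, differed between the same 2 sets. The ratio of observed to expected CpG in the window had a median of 0.606 over all members (quartiles 0.476 and 0.718), compared with 0.440 over all promoters. It was 0.605 for promoters with H3K4me1 in Veh only, 0.561 for those with it in both treatments and 0.284 for those with it in neither. Members with H3K4me3 reached 0.635 (quartiles 0.529 and 0.735) and members without it 0.381 (0.244 and 0.582), so the ranges overlapped. Their GC content was alike, with medians of 53% and 53.1%. Among promoters lacking H3K4me3, the members were richer in CpG than promoters with H3K4me1 in neither treatment, which had a median of 0.211. A ratio above 0.6 was found at 51.5% of members (interval 49.7 to 53.2) and at 31.9% of all promoters. Within H3K4me3 promoters the shares were 58.1% of members (56.2 to 60) and 57.8% of all, and a median ratio of 0.635 in both.

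Short sequences bound by known factors were counted in the stretch of 280 bases shown above, on both strands. The ETS-type sequence CCGGAAG was present at 575 members (18.6%, interval 17.3 to 20.0), at 9.98% of all promoters and at 18.7% of those with H3K4me1 in Veh only. Within H3K4me3 promoters it was found at 22.1% of members (20.5 to 23.8), 19.2% of promoters without H3K4me1 and 14.2% of those with H3K4me1 in both treatments. The GC box GGGCGG, which shares no full match with CCGGAAG, was at 59.1% of members and 42.1% of all promoters, and within H3K4me3 promoters at 63.3% of members and 65.6% of all. TATAAA was at 7.57% of members and 11.9% of all. The RUNX sequence TGTGGT was at 11.3% and 14.2%, the E-box CAGGTG at 16.3% and 19%, and the AP-1 sequence TGACTCA at 2.94% and 4.47%. Within H3K4me3 promoters the gaps were smaller, and for TATAAA in the other direction. The shares of members and of all there were 6.80% and 5.93% for TATAAA, 10.7% and 11.1% for TGTGGT, 14.9% and 16.6% for CAGGTG, and 2.62% and 2.86% for TGACTCA. Of the promoters printed, Tcf7 has 1 CCGGAAG and 1 GGGCGG, Lats2, Nr4a2 and Tgif2 have 4 GGGCGG each, and Ets1 has 1 TGTGGT and 1 CAGGTG.

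With the lists as deposited, LSD1 was on most members in Veh cells. A Veh LSD1 peak lay on 1834 of 3090 windows (59.4%, interval 57.6 to 61.1), against 35.2% of all promoters, 61.2% (58.3 to 64.0) of those with H3K4me1 in Veh only and 56.8% (55.8 to 57.9) of those with H3K4me1 in both. In GSK it lay on 2075 (67.2%). With only peaks of −log10 q at or above 5, the Veh share of the members so defined was 23.4%. The deposited LSD1 lists held peaks down to a −log10 q of 0.787 in Veh and 0.775 in GSK, whereas the histone lists began at 3.01. Of the 1834, 1634 (89.1%, interval 87.6 to 90.4) also had an LSD1 peak in GSK, and over all promoters this share was 87.2%. The summit of the strongest Veh LSD1 peak stood at a median of 70.5 bp downstream of the TSS, and that of the GSK peak at 96.0 bp. Of the bases of gained H3K4me1 on windows with LSD1 in both treatments, 22.5% lay inside the Veh LSD1 peak.

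The gain of H3K4me1 was then read against Veh LSD1. Of the promoters without Veh H3K4me1, H3K4me1 was called in GSK at 1834 of 5805 that carried LSD1 in Veh (31.6%, interval 30.4 to 32.8), compared with 1256 of 16498 without one (7.61%, 7.22 to 8.03). The gap was small where H3K4me3 was present and large where it was absent. Of the 5805 promoters with LSD1, 5611 had H3K4me3 in both treatments, and of the 16498 without LSD1, 2609 had it. Within promoters that had H3K4me3 in both treatments the shares were 31.6% (30.4 to 32.8) with LSD1 and 27.3% (25.6 to 29.0) without. The reverse event, H3K4me1 in Veh and none in GSK, was found there at 13.4% (12.5 to 14.4) with LSD1 and 11.9% (10.6 to 13.2) without. Where H3K4me3 was absent, 46 of 166 promoters with LSD1 gained H3K4me1 (27.7%, 21.5 to 35.0) and 502 of 13788 without LSD1 (3.64%, 3.34 to 3.97).

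**Figure D3:**
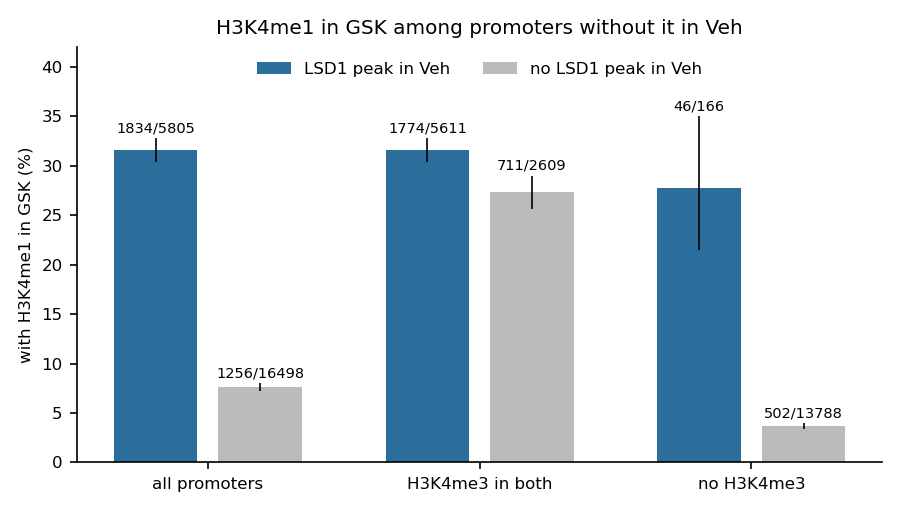
Share of promoters without Veh H3K4me1 that had an H3K4me1 peak in GSK (y axis, percent), with (blue) and without (grey) a Veh LSD1 peak, over all promoters and by H3K4me3; bars carry Wilson 95% intervals and the counts. Within H3K4me3 promoters the shares are 31.6% and 27.3%, and without H3K4me3 27.7% and 3.64%.

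For the other antibodies, the shares called in a single treatment at members had intervals that overlapped those at promoters with H3K4me1 in Veh only. LSD1 had a peak in GSK only at 441 members (14.3%) and in Veh only at 200 (6.47%), where 9.92% and 4.51% of all promoters did. The net difference was 7.80 percentage points toward GSK (interval 6.27 to 9.24), and it was 6.41 points (3.75 to 8.86) at promoters with H3K4me1 in Veh only. At members it was 9.43 with lists of equal length and 12.6 at the stricter q. Within H3K4me3 promoters it was 8.89 points at members (7.12 to 10.5) and 9.79 points over all. Where LSD1 was present in both treatments, the member peak stood higher among all LSD1 peaks by fold in GSK at 64.0% of windows. This share was 61.8% at promoters with H3K4me1 in both treatments, 65.4% with it in Veh only and 67.5% with it in neither. The median percentile was 62.5 in Veh and 71.7 in GSK, each within its own list, and the lists differ in length.

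H3K4me2, the second substrate of LSD1, had a peak in both treatments at 1238 members (40.1%). It was called in Veh only at 723 (23.4%, interval 21.9 to 24.9) and in GSK only at 110 (3.56%, 2.96 to 4.27), where 12.8% and 1.92% of all promoters were called. The net difference was −19.8 points (−21.0 to −18.5) at members and −21.8 points (−23.7 to −19.4) at promoters with H3K4me1 in Veh only. This direction changed with the lengths of the lists. With both H3K4me2 lists cut to 9437 peaks it was 4.27 points toward GSK (2.20 to 6.28) at members. It was then 2.36 (0.0128 to 4.67) at promoters with H3K4me1 in Veh only and 1.25 over all promoters. The cut gives both lists the same total, so it would also remove a true difference in the number of sites. The cause was not tested. At the shared peaks the H3K4me2 percentile was higher in GSK at 38.8% of windows, with the shorter list in GSK. It was higher at 36.6% with H3K4me1 in both treatments and at 41.7% both with it in Veh only and with it in neither. Within H3K4me3 promoters H3K4me2 was called in Veh only at 27.8% of members (26.0 to 29.6) and 23.5% of all, and in GSK only at 3.62% and 3.11%.

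H3K27ac, a mark of active promoters, had a peak at 1045 members in Veh (33.8%) and 406 in GSK (13.1%). It was called in Veh only at 662 (21.4%) and in GSK only at 23 (0.744%), against 12.1% and 0.335% of all promoters. The net difference was −20.7 points (−21.2 to −20.0), and −22.6 (−23.1 to −21.4) at promoters with H3K4me1 in Veh only. At members it was −1.69 points (−3.11 to −0.227) with lists of equal length and −11.3 with windows of 500 bp. Within H3K4me3 promoters it was called in Veh only at 26.4% of members (24.7 to 28.2), 24.3% of all and 30.9% of those with H3K4me1 in neither treatment. Pol II was called in Veh only at 376 members (12.2%) and in GSK only at 147 (4.76%), against 7.08% and 2.84% of all promoters. Its net difference of −7.41 points (−8.66 to −6.06) stayed at −8.10 (−9.63 to −6.42) with lists of equal length, and it was −8.22 (−10.3 to −5.84) where H3K4me1 was in Veh only. Within H3K4me3 promoters Pol II was in Veh only at 15.1% of members (13.7 to 16.5) and 13.6% of all, and in GSK only at 5.79% and 5.08%. LSD1 and Pol II thus had the same direction in both H3K4me1 classes with either set of lists. For these 2 antibodies the cut was small, so it could change little. The Veh list went from 15638 to 15401 peaks for Pol II and from 21252 to 19919 for LSD1. For H3K27ac it went from 7410 to 2751 and for H3K4me2 from 15219 to 9437. Pol II folds were lower in GSK in general. Where Pol II was in both treatments, the median fold at members was 5.78 in Veh and 4.57 in GSK. It was 5.74 and 4.60 where H3K4me1 was in neither treatment. By percentile within each list, the Pol II peak stood higher in GSK at 48.7% of these member windows.

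**Figure D4:**
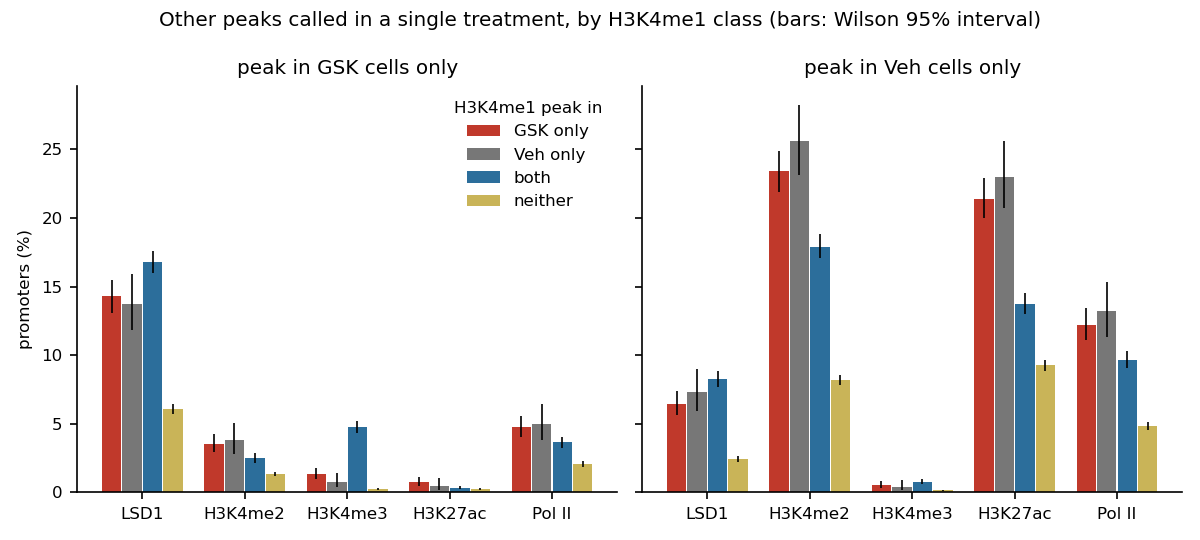
Share of promoters (y axis, percent) with a peak of each other antibody in GSK only (left) or in Veh only (right), by where H3K4me1 was called (colours); lines are Wilson 95% intervals. The red bars of the members and the grey bars of the promoters with H3K4me1 in Veh only have overlapping intervals for each antibody in both panels.

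At 1255 members (40.6%) no other antibody was called in a single treatment, against 63.5% of all promoters, and 416 (13.5%) had no peak of the other 5 antibodies at all, against 44.9%. H3K4me3, Pol II and LSD1 were each called in both treatments at 884 members (28.6%) and 14.4% of all promoters. Among promoters with H3K4me3 in both treatments, 32.4% of members (interval 30.6 to 34.3) and 36.2% of all had no other antibody in a single treatment, and 35.6% (33.7 to 37.5) and 29.4% had Pol II and LSD1 in both. GSK-only peaks of 2 further antibodies were found at 64 members (2.07%), against 1.28% of all promoters, and of 3 at 1 member. Veh-only peaks of 2 further antibodies were found at 364 members (11.8%), against 6.76% of all, of 3 at 74 and of 4 at 3.

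The strongest gains by −log10 p, among members with no Veh H3K4me1 within 1 kb, were at Lats2, Metap1, Lyrm7, Mrpl15, Bhmg1, Gnaz, Selenos, Psmd14, Gp5 and Tgif2. At Lats2 the GSK peak (chr14:57746757-57747058, outside transcripts) had a fold of 6.22 and lay 634 to 935 bp upstream of the TSS. LSD1 was there in Veh at a fold of 5.04 and in GSK at 6.63, and Pol II in Veh only at 3.31. Mrpl15, a protein of the large mitochondrial ribosomal subunit, had the largest fold of these, 6.99, in an intron 825 to 1359 bp downstream (chr1:4784367-4784901). Its H3K4me2 fold was 4.86 in Veh and 7.67 in GSK. Metap1, which removes the initiator methionine, carried the peak in an intron (chr3:138487848-138488452) at a fold of 6.01, with LSD1 at 3.23 in Veh and 6.54 in GSK and H3K4me2 in Veh only.

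Lyrm7, an assembly factor of respiratory complex III, had a peak of fold 5.79 in its intron at chr11:54858944-54859843 and LSD1 in GSK only (3.65). Psmd14 likewise had LSD1 in GSK only (4.23), beside H3K4me2 and H3K27ac in Veh only, and its strongest GSK H3K4me1 peak at chr2:61711009-61711340 had a fold of 6.11. Selenos, a selenoprotein of the endoplasmic reticulum membrane, had 9.29 for H3K4me3 in Veh and 9.60 in GSK, the highest H3K4me3 folds of these 10. Gnaz, a G protein α subunit, and Tgif2 had LSD1, H3K4me2 and H3K4me3 in both treatments and no Pol II or H3K27ac peak. Bhmg1 and Gp5 had no H3K4me3, H3K4me2, H3K27ac or Pol II peak, and Bhmg1 had LSD1 in GSK only (4.8), while the peak at Gp5 entered the window by 3 bp. The Gp5 peak also extended a Veh H3K4me1 peak that lay 1180 bp from the window. Thus 8 of the 10 carried H3K4me3 in both treatments, close to the 80.4% of all members.

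The members with the strongest Veh LSD1 peaks had them in both treatments. The fold at the shared peak of Exd1 and Chp1, a calcineurin-like calcium-binding protein, was 21.2 in Veh and 21.7 in GSK. At Emc6, a subunit of the membrane insertase of the endoplasmic reticulum, and its head-to-head neighbour Tax1bp3 it was 16.1 and 15.8, at Ccdc124 14.8 and 14.0, and at Bbc3, which encodes the pro-apoptotic protein PUMA, 9.60 and 8.78. H3K4me3 was present in both treatments at all 6, and the H3K4me1 folds in GSK ran from 3.09 at Bbc3 to 4.33 at Ccdc124.

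Other antibodies in GSK only accompanied H3K4me1 most at the lncRNA gene 2610307P16Rik. LSD1 was at 4.08, H3K4me2 at 5.38 and H3K4me3 at 3.83 there, each with no Veh peak, and the H3K4me1 peak of 1225 bp (chr13:28884374-28885598) covered the TSS. Znrf4, a RING-type ubiquitin ligase, had LSD1 (4.02) and H3K4me2 (4.09) in GSK only and no H3K4me3. B230307C23Rik had LSD1 (4.73) and H3K4me2 (4.29) in GSK only with H3K4me3 in both. Ttc39c, Gramd3 and the lncRNA LOC102637792 had LSD1 and Pol II in GSK only. At the other end, Psmd1, a proteasome subunit, Nup85, a nucleoporin, and Morrbid, a lncRNA that represses Bcl2l11, had LSD1, H3K4me2, H3K27ac and Pol II in Veh only, with H3K4me3 in both. Gon7, which shares its start site with Gm20604, had 3 of these 4, all but LSD1, in Veh only.

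Genes of memory and progenitor T cells were members at 4 of 20 promoters (20.0%, interval 8.07 to 41.6), where 9.78% of all promoters were. Of those with H3K4me3 in both treatments 3 of 16 were members (18.8%, 6.59 to 43), where 16.0% of all such promoters were, so each interval contains its background. At Tcf7 the GSK peak of 2431 bp (chr11:52282166-52284596) ran from 2001 bp upstream to 429 bp downstream and joined a Veh peak beyond the window. LSD1 was in GSK only there (4.01), and H3K4me2 was 3.65 in Veh and 5.57 in GSK. Bcl2, the survival factor, had a GSK peak upstream (chr1:106715161-106717324) that also extended a Veh peak, with LSD1 at 4.58 in Veh and 7.38 in GSK and H3K27ac in Veh only. Cd27, a costimulatory receptor, had H3K4me3 and Pol II in both treatments and no LSD1 peak. Its GSK H3K4me1 peak, of fold 1.91, extended a Veh peak as well. Cxcr5, the receptor for CXCL13, had none of the other marks.

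T cell transcription factors were members at 9 of 71 promoters (12.7%, interval 6.81 to 22.4) and at 8 of the 57 with H3K4me3 in both treatments (14.0%, 7.29 to 25.3), intervals that contain the backgrounds of 9.78% and 16.0%. Tox, a factor of exhausted T cells (2 TSSs), Zeb2, a zinc finger repressor of transcription (3 TSSs), Batf3 and Maf each had LSD1, H3K4me2 and H3K4me3 in both treatments and neither Pol II nor H3K27ac. Their LSD1 folds were 5.06 in Veh and 5.60 in GSK at Tox, 3.42 and 5.13 at Zeb2, 2.64 and 3.04 at Batf3, and 4.58 and 6.39 at Maf. Nr4a2 differed from these in that H3K4me2 had no peak in either treatment. It also had a Pol II peak, 7.80 in Veh and 4.17 in GSK, and H3K27ac in Veh only (5.19). A lower Pol II fold in GSK was general at shared peaks, with member medians of 5.78 in Veh and 4.57 in GSK. At the Ets1 start site no other antibody had a peak. In 5 of these 6 genes LSD1 was thus present in both treatments, each with the larger fold in GSK. LSD1 was in both treatments at 64.6% of all members with H3K4me3. A larger LSD1 fold in GSK was general. The median at shared LSD1 peaks was 4.61 in Veh and 5.35 in GSK over members. It was 4.38 and 5.18 where H3K4me1 was in neither treatment.

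In the JAK-STAT and SOCS list, 7 of 28 promoters were members (25%, interval 12.7 to 43.4), and all 28 had H3K4me3 in both treatments. The 16.0% of all H3K4me3 promoters lies within this interval. At the stricter q the share was 10.7%, where 9.04% of all promoters were GSK only. They were Stat5a (2 TSSs), Stat5b and Stat2, transcription factors of cytokine receptors, the kinase Tyk2, and Socs4 and Socs5, which dampen such signals. The GSK peak at Stat5a (chr11:100858336-100859957) covered both of its start sites at a fold of 3.32. LSD1 was at 6.41 in Veh and 5.88 in GSK there, with H3K4me2 and Pol II in Veh only. Pol II was also in Veh only at Stat5b (3.83) and Tyk2 (3.00), both without LSD1. It was in both treatments at Stat2 (4.84 and 2.82) and Socs4 (6.64 and 5.40), whose LSD1 fold was 3.63 in Veh and 6.45 in GSK. Over all members the median Pol II fold at shared peaks was also lower in GSK, 4.57 against 5.78 in Veh.

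Few receptor and effector promoters were members, and the intervals of these 4 lists each contain the 9.78% of all promoters. Of 15 promoters of inhibitory receptors 1 was a member (6.67%, interval 1.19 to 29.8), Cd200r1, with LSD1 (4.30) and H3K4me2 (4.11) in Veh only. Of 18 promoters of effector and cytokine genes 1 was a member (5.56%, 0.988 to 25.8), Tnfsf10 (TRAIL), while 13 of the 18 had H3K4me1 in both treatments. Of 43 promoters of cytokine and chemokine receptors 3 were members (6.98%, 2.40 to 18.6): 2 TSSs of Il15ra, which presents IL-15, within a GSK peak of 1782 bp, and the TSS of Cxcr3, a chemokine receptor of effector cells. Among 38 promoters of T cell receptor signalling and costimulation 2 were members (5.26%, 1.46 to 17.3), a start site of Zap70 without any other peak, and Cd226, an activating receptor, with LSD1 in Veh only (3.85). In this list 23 of 38 had H3K4me1 in both treatments. Of its 34 promoters with H3K4me3 in both treatments 1 was a member (2.94%, 0.521 to 14.9), below the 16.0% of all such promoters.

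The list of LSD1 complex members and H3K4 enzymes held 5 member promoters of 41 (12.2%, interval 5.32 to 25.5), all among its 36 with H3K4me3 in both treatments (13.9%, where 16.0% of all such promoters were members). Dpy30 (3 TSSs) and Ash2l are core subunits of the MLL and SET1 methyltransferases, and Phf21a (BHC80) belongs to the LSD1-CoREST complex and reads unmethylated lysine 4. Dpy30 had LSD1 at 4 in Veh and 4.93 in GSK and Pol II at 10.9 and 5.99, with H3K27ac in Veh only. Larger LSD1 folds and lower Pol II folds in GSK were general at shared peaks. Ash2l had LSD1 at 3.35 and 4.41, with H3K4me2 and H3K27ac in Veh only. Phf21a had only H3K4me3, at 3.13 and 3.16.

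Most members are not T cell genes. Since 16.0% of promoters with H3K4me3 in both treatments were members (interval 15.5 to 16.6), the lists are set against that share. The denominators include promoters with Veh H3K4me1, which could not be members. The subunits and assembly factors of the mitochondrial respiratory chain and ATP synthase had 28 members among 100 H3K4me3 promoters (28.0%, interval 20.1 to 37.5). These were at 23 genes, of complex I (such as Ndufa2, Ndufa8, Ndufb5 and Ndufv1), complex II (Sdha), complex III (Uqcrb, Uqcrc2, Uqcrfs1 and Uqcrq), complex IV (Cox8a) and ATP synthase (such as Atp5g1 and Atp5k). The same list also had 12 promoters with H3K4me1 in Veh only, which is 10.9% of its 110 promoters, against 3.50% of all promoters. H3K4me1 was in both treatments at 20.9% of its promoters, against 25.9% of all. Of the 110, 25.5% were members (18.2 to 34.3), against 9.78% of all promoters. With windows of 500 bp either side the share was 8.18% (4.36 to 14.8), and the 6.5% of all promoters then GSK only lies within that interval. It was 15.5% (9.88 to 23.4) against 9.04% at the stricter q, and 17.3% (11.3 to 25.4) against 7.48% with no Veh peak within 1 kb.

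Zfp genes, which encode zinc finger proteins, were members at 67 of 404 H3K4me3 promoters (16.6%, interval 13.3 to 20.5), close to the background. Interferon response genes were members at 6 of 32 (18.8%, 8.89 to 35.3), namely Gbp2, Ifih1, Ifit3, Irf1, Irf9 and Oas1a. Cell cycle genes were at 6 of 43 (14.0%), replication-dependent histones at 7 of 53 (13.2%) and cytosolic ribosomal proteins at 9 of 91 (9.89%). Lower shares were seen for Rnf and Trim ubiquitin ligases, with 10 of 136 (7.35%, 4.04 to 13.0), for Slc transporters, with 22 of 233 (9.44%, 6.32 to 13.9), and for glycolysis and nutrient transport, with 1 of 34 (2.94%, 0.521 to 14.9), the member being Tpi1. Over all promoters of these 3 lists, H3K4me1 was in both treatments at 36.9%, 34.8% and 40.5% in that order, against 25.9% of all promoters. Such promoters could not be members. The same share was 35.4% for Zfp and 58.8% for interferon response genes.

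Lists of genes that these cells mostly leave without H3K4me3 are set here against the 9.78% of all promoters. Of the 15502 promoters without H3K4me3, 548 were members. Olfactory and vomeronasal receptors had 1 of 1489 promoters (0.0672%, interval 0.0119 to 0.379), Olfr94. Protocadherins had 1 of 71 (1.41%, 0.249 to 7.56), and both intervals lie below 9.78%. Collagens had 1 of 49 (Col2a1, 2.04%, 0.361 to 10.7) and myeloid markers 0 of 16 (interval up to 19.4%), intervals that contain it. The largest shares in this group were those of Hox genes with 7 of 43 (16.3%, interval 8.12 to 30.0) and potassium channels with 14 of 136 (10.3%, 6.23 to 16.5). Both intervals contain 9.78%. Neuronal markers had 1 of 21 (Tubb3, 4.76%, 0.846 to 22.7), again with 9.78% inside the interval. By chromosome, the share of promoters in the class ran from 6.24% on the X chromosome and 7.54% on chromosome 12 to 12.4% on chromosome 14, with 0 of 93 on the Y chromosome (interval up to 3.97%).

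**Figure D5:**
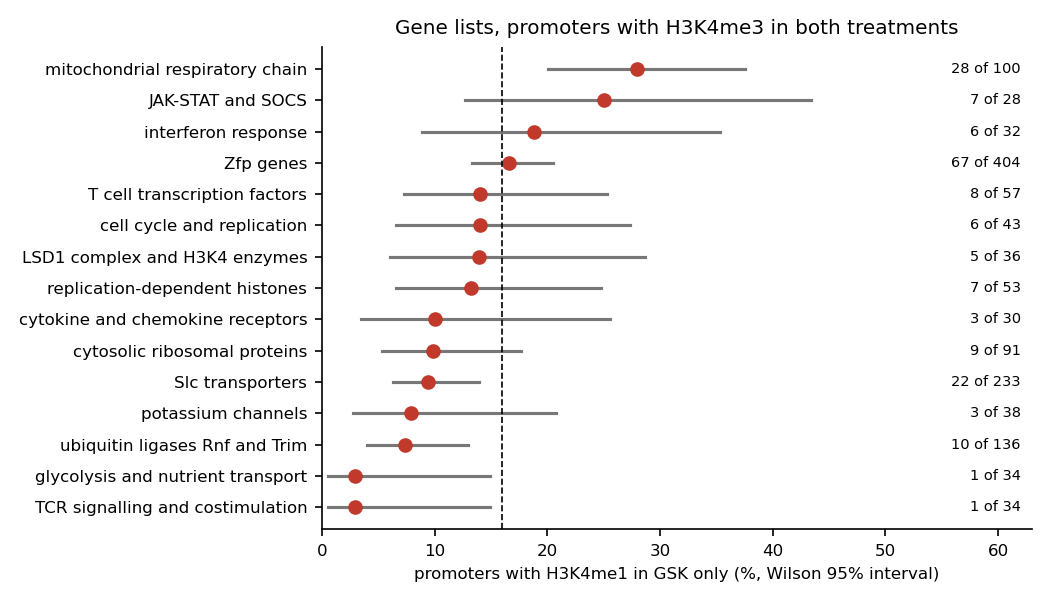
Share of promoters with H3K4me3 in both treatments that were members (x axis, percent; point, with Wilson 95% interval as line) for each gene list with at least 20 such promoters; counts stand at the right and the dashed line marks the share over all such promoters, 16.0%. The interval of the respiratory chain list lies above the line, though with windows of 500 bp either side its share over all its promoters (8.18%, 4.36 to 14.8) has an interval that holds the background of 6.5%, and those of the Slc transporters, the Rnf and Trim ubiquitin ligases, glycolysis and T cell receptor signalling lie below it. Promoters with Veh H3K4me1 are counted in each denominator and could not be members.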

How the data were processed

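ChIP-seq of OT1 CD8+ T cells covered 6 antibodies in 2 treatments. Of 16 samples, 12 had a peak list and were analysed, and the 4 input samples were not used here as they came without one. The authors aligned reads to mm10 (Bowtie2, unique alignments), used Samtools to discard PCR duplicates, and ran MACS2 on each library with input as the control. The peak names carry a p cutoff of 0.001. LSD1 and Pol II lists are narrow and histone lists broad, and the lowest −log10 q in the histone lists was 3.01. The LSD1 and Pol II lists were less strict. Their lowest −log10 q was 0.787 in Veh and 0.775 in GSK for LSD1, and 0.595 and 0.523 for Pol II. Each deposited peak has a fold enrichment (a ratio of ChIP signal to local background), a −log10 p, a −log10 q and a score, which is 10 times −log10 p for narrow and 10 times −log10 q for broad peaks, cut to a whole number. The folds and −log10 p values were used, and the score was not. Read depth is not given in peak lists. The study's listing has more unique read pairs in GSK for H3K4me1, H3K4me3 and Pol II. It has fewer for H3K4me2, LSD1 and, by a wide margin, H3K27ac, and no list was scaled for this here. The authors describe drawing equal numbers of reads at random to compare signals. Whether the lists were called on such reads is not stated.

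Windows of 1 kb either side of 31603 curated RefSeq start sites (GRCm38.p6) were intersected with the lists at 1 bp or more, using Python 3.11.15, numpy 2.4.6, pandas 2.3.3 and scipy 1.17.1. Overlap and classification code was tested on simulated data. All 23273 start sites found in the RefSeq promoter table had the same sequence there. Intervals are Wilson 95% intervals. The interval of a net difference comes from the GSK-only share among promoters called in a single treatment. The fold of a promoter is that of its highest peak.

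The members, gene lists and comparisons were chosen with earlier results of these data known. Genes were named by rule: the 10 highest −log10 p of GSK H3K4me1 with no Veh H3K4me1 within 1 kb, 1 per peak; the 6 strongest Veh LSD1 peaks, 1 per gene; the 6 members with most GSK-only and the 4 with most Veh-only peaks of other antibodies; members in the T cell and chromatin enzyme lists; and the 3 promoters on either side of the threshold. Genes named from the other lists are members of those lists, chosen after their values were seen where only some are given. Start sites on chromosome 18 were given no sequence. The B cell list's member count and a promoter sequence are not reported here. Alternatives covered the window, the overlap, list length, a stricter q, a single TSS per gene and a margin free of Veh peaks.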

Additional observations from a re-analysis of the deposited data

How the results depend on the processing

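The number of GSK-only promoters, 3090, was 2055 with windows of 500 bp either side. It lay within 1.5 times of 3090 under the other alternatives, at 2721 with 200 bp of overlap, 2248 with lists of equal length, 2857 at −log10 q of at least 5, 2544 with a single TSS per gene and 2365 with no Veh peak within 1 kb. Of the 3090, 2248 (72.8%) were GSK only with equal lists and 1353 (43.8%) at the stricter q, while the other 1737 then had no H3K4me1 peak in either treatment.

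With lists of equal length, H3K4me2 reversed to 4.27 points and H3K4me3 to −0.178 points, with an interval of −0.716 to 0.389. H3K27ac moved to −1.69, LSD1 to 9.43 and the extended share to 15.1%. With windows of 500 bp, H3K4me3 in both treatments was 71.8%, LSD1 in Veh 50.4%, the net differences −15.8 (H3K4me2), −11.3 (H3K27ac), −5.99 (Pol II) and 1.41 points (H3K4me3), the downstream share 37.3%, the extended share 24.7% and the respiratory chain share 8.18%. With 200 bp of overlap these were 77.7%, 56.7%, −18.3, −17.3, −8.71 (Pol II), 44.4% and 17.9% in that order, the H3K4me3 net difference and the respiratory chain share having stayed within the interval. At −log10 q of at least 5, LSD1 in Veh was 23.4%, the net differences −18.1 (H3K4me2), −14.2 (H3K27ac), −8.96 (Pol II), 2.28 (H3K4me3) and 12.6 (LSD1), the downstream share 46.1%, the extended share 6.90%, the respiratory chain share 15.5% and the JAK-STAT share 10.7%. A single TSS per gene moved H3K27ac to −21.2. With no Veh peak within 1 kb, H3K4me3 in both was 78.0%, LSD1 in Veh 56.9%, H3K27ac −18.8, the extended share 0.381% and the respiratory chain share 17.3%. The causes were not tested. The alternatives for CpG content, H3K4me3 width, the gene lists and the Veh-only class were chosen after seeing the data; CpG content and H3K4me3 width stayed within their quartiles.

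No paired analysis was possible because each antibody and treatment has 1 library, and no library could be left out for the same reason. Shares describe these 12 libraries, and depth, which limits weak peaks, was not available from the lists.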
